A study of Saccharomyces cerevisiae with 5 samples.

Results

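The genes described here encode 60 enzymes of amino acid biosynthesis in budding yeast. They were taken by name from the platform annotation of the arrays, out of 5583 genes named on either platform, by a rule that uses gene names alone. All 60 were present on both platforms, and all 60 symbols are the current ones in RefSeq assembly R64. The list holds 4 genes of arginine, 5 of histidine, 11 of branched-chain, 7 of lysine, 11 of aromatic and 10 of sulphur amino acid synthesis. The other members are 5 genes of the threonine pathway, 3 of serine and glycine synthesis and 4 of nitrogen assimilation into asparagine, glutamine and glutamate. RNA that came down with the tagged protein zzYra1 in an immunoprecipitation (IP) was compared with total RNA on 5 spotted 2-colour arrays. Yra1 binds RNA and helps to load the mRNA export receptor in the nucleus. By the labels, channel 2 held the IP RNA on arrays 2, 4 and 5, and channel 1 held it on arrays 1 and 3. Strain, growth medium and the nature of the zz tag are not stated in the sources used here, and no mock precipitation was among the samples.

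Yeast makes every amino acid of its proteins from central carbon intermediates, ammonium and sulphate. Most of these pathways are controlled together: when an amino acid runs short, the kinase Gcn2 raises translation of the activator Gcn4, which induces genes in many branches at the same time. Pathway regulators such as Leu3, Lys14, Met4 and the Arg80 and Arg81 proteins act on single branches. In rich medium many of the genes are only moderately transcribed, whereas ILV5 and MET6 are known for abundant mRNA.

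A value here is the log2 ratio of the 2 channels, relative to the median spot of the same array, averaged over the spots of a gene. Which channel is on top of the deposited ratio is not given. Arrays 2, 4 and 5 have the same channel assignment and so run the same way under either reading, whereas arrays 1 and 3 may run the same way as these or the opposite way. "Higher" and "lower" therefore describe the deposited ratio and not IP over total RNA. Of the named genes, 99.2%, 68.9%, 48.8%, 57.7% and 31.0% had a value on arrays 1 to 5, and why a spot lacked one is not given. Gene values were spread with an SD of 0.91, 0.81, 1.07, 1.11 and 2.25 on arrays 1 to 5. YRA1 itself had values on arrays 1 and 3 alone, 0.12 and -0.01.

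As a group the amino acid genes lay close to the median of each array, with members spread to both sides. Values existed for 58, 42, 34, 37 and 20 members on arrays 1 to 5. Their medians were 0.06, 0.03, 0.25, 0.12 and 0.56 on arrays 1 to 5, against -0.01, 0.003, -0.04, -0.03 and -0.10 for all genes. Of 191 member values in all, 101 were above the array median and 90 below as deposited, and 94 were above and 97 below with the sign of arrays 2, 4 and 5 turned. The member farthest above was HOM3 (2.07), ARO7 (2.43), ILV2 (3.17), ILV5 (4.05) and HIS3 (4.81) on arrays 1 to 5. The member farthest below was ARG8 (-2.17), LYS4 (-2.53), GLY1 (-1.73), GLN1 (-1.60) and LYS12 (-4.01) on arrays 1 to 5. No gene was at the same end on more than 1 array.

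**Figure D1:**
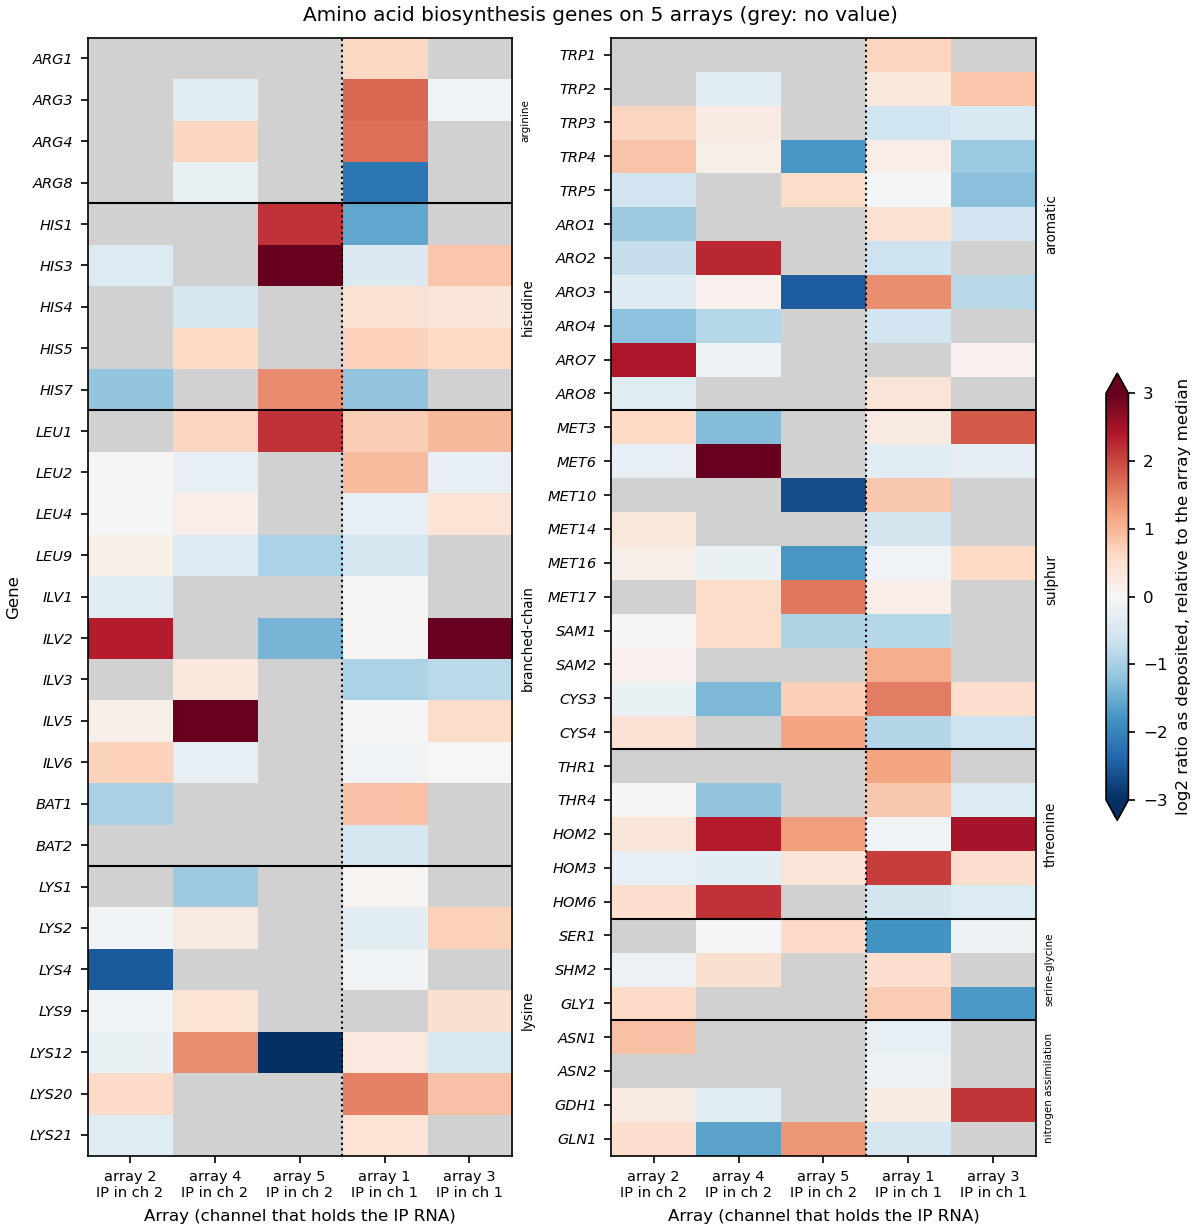
Each row is a gene, grouped by branch, and each column an array, with the arrays of IP RNA in channel 2 left of the dotted line. Colour gives the log2 ratio as deposited relative to the array median, cut at 3 on either side, and grey marks no value. Few rows keep 1 colour, and ILV5 and MET6 are deep red on array 4 alone.

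The share of members past 2-fold from the array median was near that of all genes on each array. It was 12 of 58 members on array 1 (20.7%, against 23.3% of all genes) and 6 of 42 on array 2 (14.3%, against 15.2%). On array 3 it was 7 of 34 (20.6%, against 26.6%), on array 4 it was 11 of 37 (29.7%, against 26.6%), and on array 5 it was 14 of 20 (70.0%, against 64.5%). Of the members measured, 6 of 58, 2 of 42, 4 of 34, 5 of 37 and 1 of 20 were in the top 5% of all genes on arrays 1 to 5, and 1, 3, 1, 1 and 1 in the bottom 5%. The top genes were ILV5, MET6, HOM2, ARO2 and HOM6 on array 4 and ILV2, HOM2, MET3 and GDH1 on array 3. On array 1 they were ARG3, ARG4, LYS20, ARO3, CYS3 and HOM3.

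Few members kept their side of the median from array to array, and the same held for all genes on at least 4 arrays. Of 27 members with a value on at least 4 arrays, LEU1 alone was on 1 side on every array as deposited, against 11.9% of all genes so measured. With the sign of arrays 2, 4 and 5 turned, it was 3 of 27 (TRP3, CYS4 and HOM6), against 10.1% of all genes. Among the 10 members with values on all of arrays 2, 4 and 5, HOM2 alone was on 1 side on all 3, against 29.0% of all genes. For the 4 pairs of arrays with the same channel assignment, the Pearson correlation across members was 0.05 (arrays 1 and 3, 32 members), -0.11 (arrays 2 and 4, 26 members), -0.25 (arrays 2 and 5, 15 members) and -0.14 (arrays 4 and 5, 13 members). Across all genes it was -0.04, 0.12, 0.03 and 0.16 for these pairs. Over all 10 pairs the median across members was -0.07 as deposited and -0.06 with arrays 2, 4 and 5 turned. These values are descriptions across genes, which are not independent replicates and share arrays.

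Neighbouring spots of a member agreed closely on arrays 3, 4 and 5, and the repeated spots on array 1 did not. On arrays 3, 4 and 5 nearly every gene was spotted as a pair of neighbours. For the 23, 31 and 19 members with a value in both spots, the spots correlated across members at 0.85, 0.89 and 0.95. The median difference between spots was 0.44, 0.28 and 0.45, and the SD of 1 spot was 0.43, 0.46 and 0.47. The 27 members with values on at least 4 arrays ranged over a median of 2.39 between their lowest and highest array as deposited, against 2.24 for all such genes. The pairs share position on the slide and hybridisation, so their agreement covers local error alone. On arrays 1 and 2, of the other platform, the repeated spots of a gene were not neighbours, so distance and platform cannot be told apart. Across the 1098 genes with a value in 2 spots on array 1 they correlated at 0.12, and across 430 genes on array 2 at 0.31, against 0.79, 0.86 and 0.92 on arrays 3 to 5. Of the 8 members so measured on array 1, 4 had spots more than 1 apart, with ARO2 farthest (-1.66 and 0.42). The SD of 1 spot over these 8 was 0.85, close to the SD of 0.91 over all genes of that array. Gene names on arrays 1 and 2 rest on the platform annotation, and whether it is right for every spot was not tested.

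**Figure D2:**
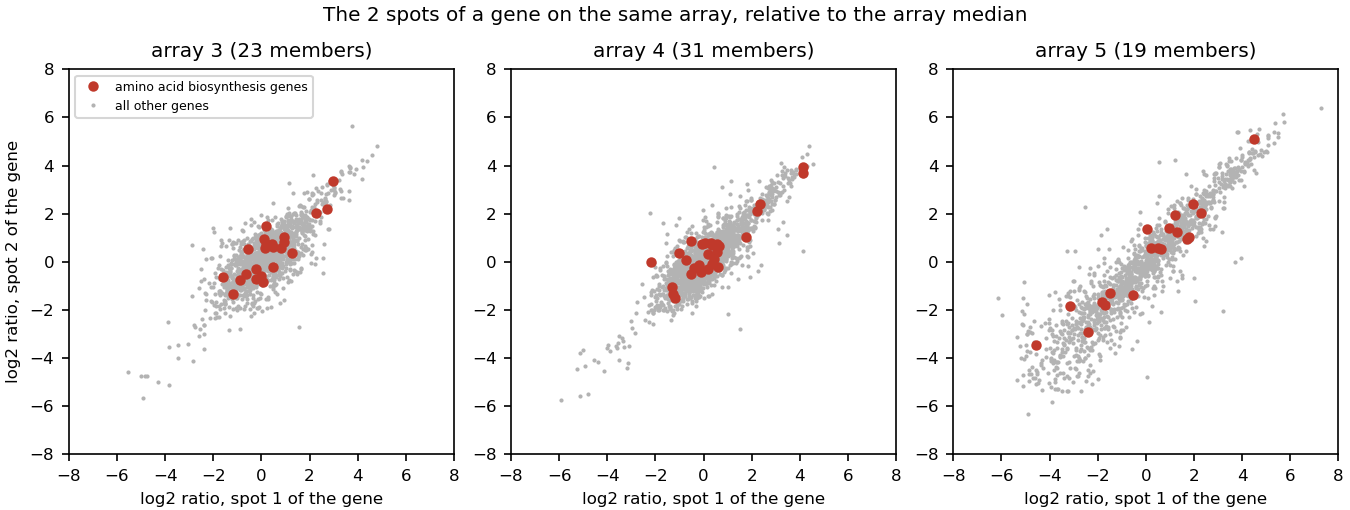
Each point is a gene with a value in both of its spots on array 3, 4 or 5, with the log2 ratio of 1 spot on each axis, and members in red over all other genes in grey. Members follow the diagonal on each array, and the highest ones (ILV2 on array 3, ILV5 and MET6 on array 4, HIS3 on array 5) are high in both spots.

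No member passed the test on arrays 2, 4 and 5. With limma and Benjamini-Hochberg adjustment over 2981 genes with a value on at least 2 of these arrays, 0 genes (0%) had an adjusted p under 0.05. At an unadjusted p under 0.05 it was 133 genes, or 4.46%. Of the 34 members fitted, 10 on all 3 arrays and 24 on 2 of them, 0 had an unadjusted p under 0.05. With trend and robust settings in limma 0 of the 2981 genes had an unadjusted p under 0.05, where evenly spread p-values would give 149. The 0 members of that fit therefore add nothing. The members had a median mean ratio of 0.11, with 20 above 0 and 14 below, against a median of -0.03 and 47.8% above 0 for all genes fitted. The SD between arrays had a median of 0.94 over members and 0.75 over all genes. The other 26 members, the 4 arginine genes among them, had too few values on these arrays to be fitted. When array 5 was left out, 4 of 26 members (HOM2, HOM6, ILV5 and MET6) had an unadjusted p under 0.05, against 8.19% of the 2185 genes fitted then. None of the 4 passed after adjustment, the smallest adjusted p being 0.48 for ILV5 by limma. HOM6, ILV5 and MET6 have no value on array 5, so their means and SDs were the same in both fits. What differed for them was limma's standard error, which for ILV5 was 1.10 with array 5 in the fit and 0.78 without it.

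**Figure D3:**
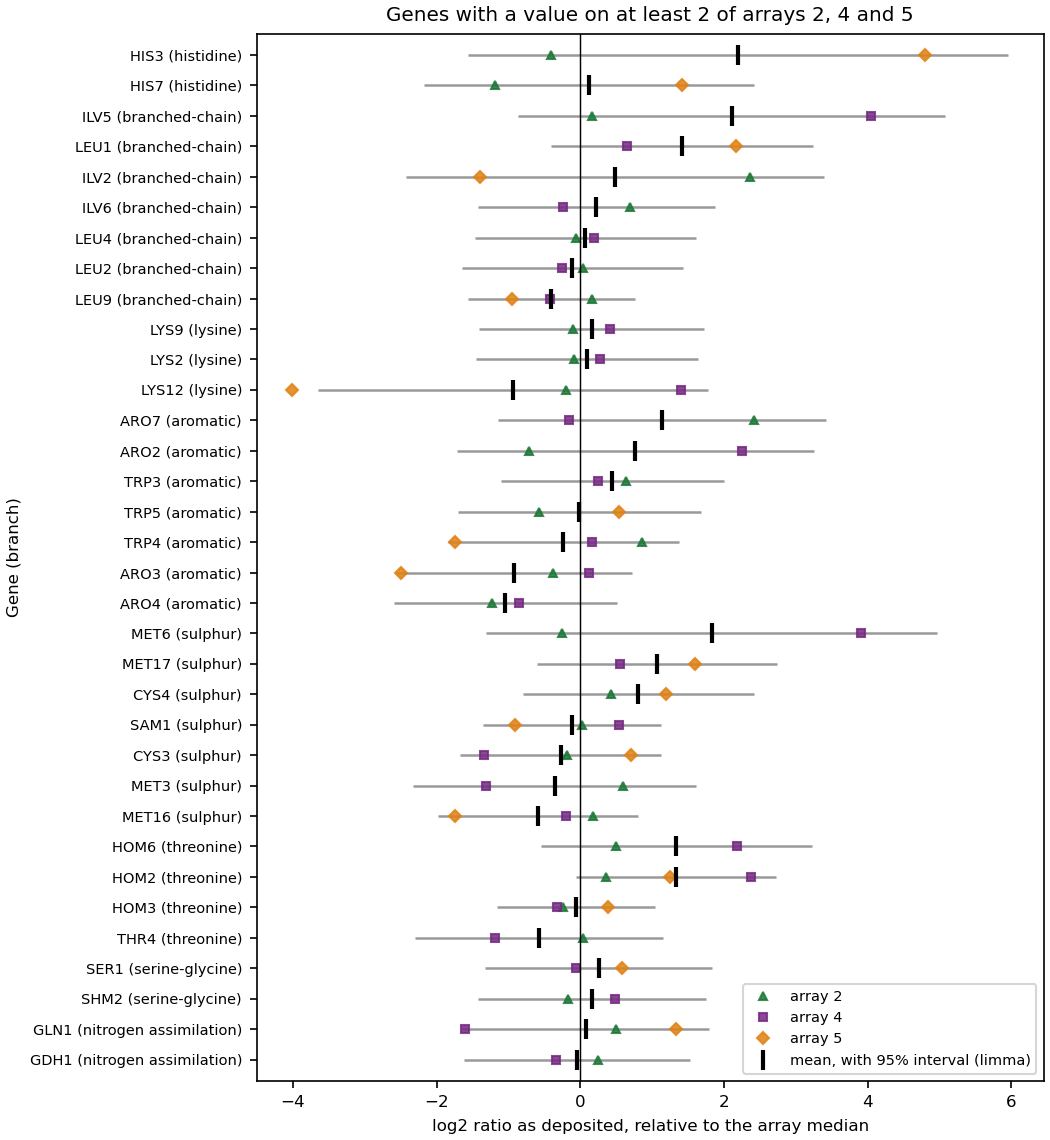
Points give the log2 ratio as deposited of 34 genes on arrays 2, 4 and 5, relative to the array median, and black ticks their mean with limma's 95% interval in grey. Every interval spans 0, and HOM2, with values of 0.37, 2.38 and 1.25, comes nearest to leaving it.

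Of the 8 values of the arginine branch, 4 came from array 1. ARG3, ornithine carbamoyltransferase, stood at 1.72 there, at -0.09 on array 3 and at -0.33 on array 4. ARG4, the argininosuccinate lyase of the last step, had 1.66 on array 1 and 0.65 on array 4. Both genes were thus past 2-fold on array 1 and not on array 4. ARG8, the mitochondrial acetylornithine aminotransferase, had -2.17 on array 1 and -0.21 on array 4. ARG1, argininosuccinate synthetase, was measured on array 1 alone, at 0.62. On array 1 the 3 genes that turn ornithine into arginine were above the median and ARG8, which acts before ornithine, below it. On array 4 they lay within 1 log2 unit of one another.

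The 3 histidine genes measured on array 5 were all past 2-fold there, as were 64.5% of all genes. The 3 measured on array 3 were above its median within 2-fold, and the 5 on array 1 lay on both sides of it. HIS3, imidazoleglycerol-phosphate dehydratase, had -0.43, -0.41, 0.82 and 4.81 on arrays 1, 2, 3 and 5. Its spots on array 5 read 4.49 and 5.12, and the value ranked 22 among 1717 genes there. HIS1, the ATP phosphoribosyltransferase of the first step, had -1.56 on array 1 and 2.16 on array 5. HIS7, which forms the imidazole ring, had -1.19, -1.18 and 1.42 on arrays 1, 2 and 5. None of these 3 genes was above the median of array 1 or 2 where measured. The multifunctional HIS4 had 0.45, 0.36 and -0.51 on arrays 1, 3 and 4. HIS5, the aminotransferase, had 0.69, 0.59 and 0.60 on the same arrays. In the fit HIS3 had a mean of 2.20 ± 3.69 (SD, arrays 2 and 5) and HIS7 0.12 ± 1.84, neither past the threshold (limma, adjusted p of 0.88 and 0.99).

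Valine, isoleucine and leucine share their enzymes up to the keto acid from which leucine branches off. ILV5, the reductoisomerase, had -0.04, 0.17, 0.55 and 4.05 on arrays 1 to 4. The value on array 4 rested on spots of 4.14 and 3.95 and ranked 7 among 3196 genes, while the other 3 arrays kept within 0.6 of their medians. Its repeated spots lay on opposite sides on array 1 (0.40 and -0.47) and on array 2 (-0.40 and 0.74). ILV2, the catalytic subunit of acetolactate synthase, had 0.04, 2.37, 3.17 and -1.40 on arrays 1, 2, 3 and 5, and its spots agreed on array 3 (2.99 and 3.34) and on array 5 (-1.49 and -1.31). ILV6, the regulatory subunit of that enzyme, stayed between -0.25 and 0.69 on arrays 1 to 4. The mRNAs of both subunits thus had unlike values on arrays 2 and 3, where ILV6 had 0.69 and -0.02. ILV1, threonine deaminase, had -0.05 and -0.32 on arrays 1 and 2. ILV3, the dehydratase, had -0.95, -0.80 and 0.34 on arrays 1, 3 and 4.

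Leucine genes kept nearer to the median, apart from LEU1 on array 5. LEU1, isopropylmalate isomerase, had 0.75, 0.98, 0.65 and 2.17 on arrays 1, 3, 4 and 5. It was above the median on each of them, and its spots differed by 0.11, 0.02 and 0.42 on arrays 3, 4 and 5. On array 1, however, they differed by 1.51. Arrays 4 and 5 gave a mean of 1.41 ± 1.07 (SD, n = 2, limma, adjusted p = 0.88). LEU2, isopropylmalate dehydrogenase, had 0.94, 0.03, -0.25 and -0.25 on arrays 1 to 4. The branched-chain aminotransferase genes BAT1 and BAT2 were measured little, BAT1 at 0.89 and -0.98 on arrays 1 and 2 and BAT2 at -0.50 on array 1.

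Lysine genes were within about 1.5 of the median on most arrays, apart from LYS12 and LYS4. LYS12, homoisocitrate dehydrogenase, had 0.30, -0.20, -0.47, 1.40 and -4.01 on arrays 1 to 5. Its spots on array 5 read -4.58 and -3.44, below 95% of the genes there, whereas on array 4 they read 1.75 and 1.05. Its mean over arrays 2, 4 and 5 was -0.94 ± 2.78 (SD, n = 3, limma, adjusted p = 0.90), and without array 5 it was 0.60. LYS4, homoaconitase, had -0.08 and -2.53 on arrays 1 and 2. Of the lysine genes, LYS12 on array 5 alone was lower. LYS2, the aminoadipate reductase, had -0.31, -0.09, 0.69 and 0.28 on arrays 1 to 4. LYS9, which forms saccharopine, had -0.10, 0.48 and 0.42 on arrays 2 to 4. LYS1, which releases lysine from it, had 0.08 on array 1 and -1.09 on array 4, where its spots differed most of all members (-2.18 and -0.01).

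In the aromatic branch the genes before and after chorismate were alike in having no common side. ARO3 and ARO4 encode the DAHP synthases of the first step. ARO3 had 1.40, -0.38, -0.82, 0.12 and -2.49 on arrays 1 to 5, and ARO4 -0.58, -1.23 and -0.85 on arrays 1, 2 and 4. ARO4 was thus below the median on all 3 of its arrays as deposited, with a mean of -1.04 ± 0.27 on arrays 2 and 4 (SD, n = 2, limma, adjusted p = 0.88). ARO2, chorismate synthase, had -0.62, -0.72 and 2.25 on arrays 1, 2 and 4, and the multidomain ARO1 had 0.46, -1.09 and -0.57 on arrays 1 to 3. ARO7, chorismate mutase, had 2.43, 0.14 and -0.16 on arrays 2 to 4. Its value on array 2 came from 1 spot, and its mean over arrays 2 and 4 was 1.13 ± 1.82 (SD, n = 2). ARO8, an aromatic aminotransferase, had 0.38 and -0.37 on arrays 1 and 2.

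The tryptophan genes showed the same scatter. TRP2 and TRP3 encode the subunits of anthranilate synthase. TRP2 had 0.32, 0.84 and -0.31 on arrays 1, 3 and 4, and TRP3 had -0.60, 0.64, -0.47 and 0.25 on arrays 1 to 4. These subunits lay on opposite sides of the median on arrays 1, 3 and 4. TRP4, the phosphoribosyltransferase, had 0.20, 0.86, -1.11, 0.17 and -1.74 on arrays 1 to 5. TRP5, tryptophan synthase, had -0.04, -0.57, -1.27 and 0.54 on arrays 1, 2, 3 and 5. TRP1 was measured on array 1 alone, at 0.65. HIS3, LEU2, LYS2 and TRP1 serve as selectable markers in many laboratory strains, and the sources used here do not state which alleles this strain carries.

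Sulphur genes divide into sulphate reduction, methionine synthesis and cysteine synthesis. MET3, ATP sulfurylase, had 0.26, 0.59, 1.84 and -1.31 on arrays 1 to 4. MET16, which reduces activated sulphate, had -0.10, 0.18, 0.59, -0.20 and -1.74 on arrays 1 to 5, and MET14, the kinase before it, -0.55 and 0.35 on arrays 1 and 2. MET10, a sulfite reductase subunit, had 0.81 on array 1 and -2.65 on array 5. No reduction gene was above the median of array 4 or 5, where MET3, MET10 and MET16 supplied 4 values. MET17, which joins sulfide to a homoserine derivative, was above the median on all 3 of its arrays as deposited, at 0.20, 0.55 and 1.59 on arrays 1, 4 and 5. MET6, methionine synthase, had -0.33, -0.25, -0.30 and 3.91 on arrays 1 to 4. Its value on array 4 rested on spots of 4.11 and 3.71 and ranked 9 among 3196 genes. Its values on the other 3 arrays lay within 0.1 of one another as deposited, though its spots on array 3 read -0.03 and -0.57.

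CYS3 and CYS4 turn homocysteine into cysteine. CYS3 had 1.54, -0.19, 0.54, -1.34 and 0.71 on arrays 1 to 5, and CYS4 had -0.87, 0.43, -0.63 and 1.19 on arrays 1, 2, 3 and 5. The pair was on opposite sides of the median on arrays 1, 2 and 3 and on the same side on array 5. In the fit the branch had a mean of 1.83 ± 2.94 for MET6 (SD, arrays 2 and 4) at the top and -0.59 ± 1.02 for MET16 (SD, n = 3) at the bottom, neither past the threshold (limma, adjusted p = 0.88 for both).

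The threonine pathway held the gene with the smallest p in the fit. HOM2, aspartate semialdehyde dehydrogenase, had -0.12, 0.37, 2.46, 2.38 and 1.25 on arrays 1 to 5. It was past 2-fold on each of the 3 arrays that carry neighbouring spots, as were 26.6%, 26.6% and 64.5% of all genes on arrays 3, 4 and 5. Its spots differed by 0.52, 0.06 and 0.06 there. Its mean over arrays 2, 4 and 5 was 1.33 ± 1.01 (SD, n = 3, limma, unadjusted p = 0.057, adjusted p = 0.88), with a value above 0 on 3 of 3 arrays. Turning the channel 2 arrays puts its values of arrays 3 and 4 on opposite sides. The mean of 4 replicates was then -0.35, with arrays 2, 4 and 5 negated. HOM6, homoserine dehydrogenase, had -0.55, 0.50, -0.41 and 2.18 on arrays 1 to 4, with a mean of 1.34 ± 1.19 on arrays 2 and 4 (SD, n = 2, limma, adjusted p = 0.88).

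HOM3, the aspartate kinase that opens the pathway, had 2.07, -0.24, 0.53, -0.32 and 0.39 on arrays 1 to 5. THR4, threonine synthase, had 0.82, 0.04, -0.40 and -1.18 on arrays 1 to 4, and THR1, homoserine kinase, 1.18 on array 1. On array 4 the values of HOM2 and HOM6 thus stood above 2 while those of HOM3 and THR4, of the same pathway, were below 0.

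Serine and glycine genes were few. SER1, phosphoserine aminotransferase, had -1.79, -0.15, -0.07 and 0.58 on arrays 1, 3, 4 and 5. SHM2, the cytosolic serine hydroxymethyltransferase, had 0.50, -0.16 and 0.48 on arrays 1, 2 and 4, and GLY1, threonine aldolase, 0.76, 0.57 and -1.73 on arrays 1 to 3. Of the genes that fix ammonium, GDH1, an NADP-dependent glutamate dehydrogenase, had 0.23, 0.24, 2.14 and -0.33 on arrays 1 to 4. GLN1, glutamine synthetase, had -0.51, 0.49, -1.60 and 1.33 on arrays 1, 2, 4 and 5. It gave the lowest member value of array 4 and an above-median value on array 5, both from arrays with IP RNA in channel 2.

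None of the arginine, histidine, branched-chain, lysine, aromatic and sulphur branches kept the highest or the lowest median on every array. Among these 6, where at least 3 genes were measured, the highest median belonged to arginine on array 1 (1.14, 4 genes), sulphur on array 2 (0.15, 8 genes) and histidine on array 3 (0.59, 3 genes). On array 4 it was lysine (0.35, 4 genes) and on array 5 histidine (2.16, 3 genes). Outside the 6, higher medians came from nitrogen assimilation (0.49, 3 genes) and threonine (0.20, 4 genes) on array 2 and from threonine on array 4 (0.93, 4 genes). The lowest median belonged to histidine on array 1 (-0.43, 5 genes), to aromatic genes on arrays 2, 3 and 5 (-0.38, -0.57 and -1.74, from 9, 7 and 3 genes) and to arginine on array 4 (-0.21, 3 genes). The aromatic median was above 0 on arrays 1 and 4 (0.26 and 0.12). Histidine genes were at the bottom of array 1 and at the top of arrays 3 and 5. Since channel assignment differs between arrays 3 and 5, the aromatic and histidine values of these arrays share a side as deposited, and oppose each other if the ratios follow the channels.

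**Figure D4:**
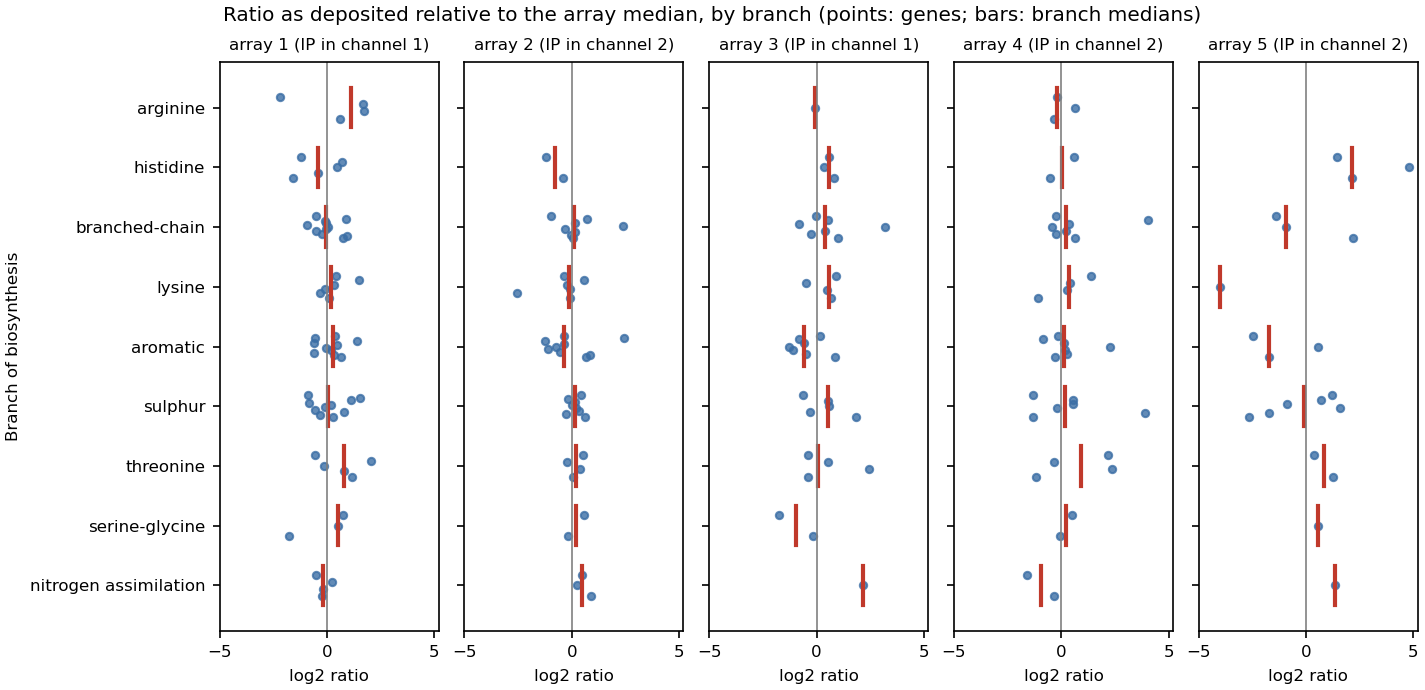
Each panel is an array, each point a gene and each bar the median of its branch, on the log2 scale as deposited relative to the array median. Branch medians sit within about 1 of 0 on arrays 2 and 4 and spread widest on array 5. There histidine genes are at 2.16 and aromatic genes at -1.74, from 3 genes each, and lysine is at -4.01 from LYS12 alone.

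Over arrays 2, 4 and 5 the fitted members had medians of 1.16 for histidine (2 genes), 0.64 for threonine (4 genes), 0.22 for branched-chain (7 genes) and 0.21 for serine and glycine (2 genes). They were 0.09 for lysine (3 genes), 0.02 for nitrogen assimilation (2 genes), -0.01 for aromatic (7 genes) and -0.11 for sulphur (7 genes). With the arrays scaled to a common spread, histidine was at 0.08, below threonine (0.70) and branched-chain (0.50). The SD of a branch's median over these 3 arrays was 2.38 for lysine, 1.52 for histidine, 1.16 for nitrogen assimilation and 0.96 for aromatic genes. It was 0.64 for branched-chain, 0.39 for threonine, 0.21 for serine and glycine and 0.15 for sulphur genes. Since branches share arrays and rest on few genes each, they were not tested against one another.

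Pairs of paralogs encode the same step, and how far their spots cross-hybridise was not tested. LEU4 and LEU9, the isopropylmalate synthases, had -0.25 and -0.49 on array 1, -0.05 and 0.16 on array 2, and 0.20 and -0.41 on array 4. LYS20 and LYS21, the homocitrate synthases, had 1.51 and 0.42 on array 1 and 0.58 and -0.36 on array 2. SAM1 and SAM2, which make S-adenosylmethionine, had -0.86 and 1.10 on array 1 and 0.03 and 0.13 on array 2. ARO3 and ARO4 stood on opposite sides on arrays 1 and 4 and on the same side on array 2. For ASN1 and ASN2, the asparagine synthetases, array 1 gave -0.25 and -0.16, and for BAT1 and BAT2 it gave 0.89 and -0.50. Differences within a pair on array 1 ran from under 0.1 to nearly 2, a span like that between the repeated spots of 1 gene there.

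Further enzymes of these pathways, outside the 60, also gave no call. Of 33 such genes listed, 13 were fitted and 0 passed with limma after adjustment, with 1, MET7, at an unadjusted p under 0.05 (a mean of -1.61 on arrays 4 and 5). Their median was -0.29, with 4 above 0 and 9 below. CPA1, a carbamoyl phosphate synthetase subunit of arginine synthesis, was the highest (1.31 ± 1.196, SD, n = 3) and HIS2, histidinol phosphatase, the lowest (-2.49 ± 3.21, SD, n = 2), with an adjusted p of 0.88 for both. HIS2 had -4.76 on array 5, where HIS1, HIS3 and HIS7 of the same pathway were above the median. Of 20 regulators, 9 were fitted, 0 passed after adjustment and 0 had an unadjusted p under 0.05 with limma. ARG82 was the highest (1.27 ± 1.01, SD, n = 3) and the kinase GCN2 the lowest (-1.80 ± 2.09, SD, n = 2), both at an adjusted p of 0.88. GCN4 itself had values on arrays 1 and 3 alone, 1.02 and -1.41.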

How the data were processed

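The deposited tables hold log10 ratios of the channels per spot. How the authors made them, and which channel is on top, is not stated in the sources used here. In base 10, 36.6% to 94.0% of the first 1000 values of an array were ratios of whole numbers (tolerance 1e-09 on the log scale, denominator up to 3000, numerator up to 65535, product under 100000000), against at most 1.9% in base 2 or e. Array medians (log10) were -1.39 and -0.85 on arrays 1 and 3, with IP RNA in channel 1. They were 1.34, 0.30 and -0.14 on arrays 2, 4 and 5, with IP RNA in channel 2. Whether these medians bear on the direction of the ratio was not tested. Values were put on the log2 scale, centred on each array's median spot and averaged over the spots of a gene. Repeated spot identifiers, 2 a table, never held 2 values and were merged. Names came from GEO's old platform annotation, and 5578 of 5583 genes matched RefSeq R64.

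Genes with at least 2 values on arrays 2, 4 and 5 were tested against 0 (limma 3.58.1 in R 4.3.3, lmFit and eBayes, Benjamini-Hochberg adjustment over 2981 genes, threshold 0.05), with code tested on simulated data. These arrays span both platforms and were fitted together because each ratio is formed within 1 array. Arrays 1 and 2 share a date-like number in their titles and have opposite channel assignment, so they may be a dye swap, which no label states. Each of arrays 3, 4 and 5 has a number of its own. Separate cultures are not stated: p-values then cover the spread between arrays, which may be technical, and the number of arrays limits precision. Other tools were Python 3.11.15, numpy 2.4.6, pandas 2.3.3 and matplotlib 3.10.9.

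The members and lists were chosen with earlier results of these data known. The rule named members on 5 arrays, the highest and lowest fitted member of each branch and list, the 5 members of smallest p and the paralogs, and other members are given to complete each branch. A planned motif search of promoters was not run. Alternatives changed arrays, direction, centring, scale, spot averaging, required values and eBayes settings.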

Additional observations from a re-analysis of the deposited data

Results flagged for a closer look

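Dixon's test at 95% was applied to 27 members with values on at least 4 arrays and 8 branch medians over 4 or 5 arrays. In 4 of these 35 items, taken as deposited, 1 array stood apart from the others. A rate of 1 in 20 would give 1.75 of 35, but only for independent values of equal spread. Gene SDs ran from 0.81 on array 2 to 2.25 on array 5, and branch medians share genes with the members. The count can therefore not be set against chance. With the sign of arrays 2, 4 and 5 turned, an alternative chosen after seeing the data, 4 of 35 stood apart as well, 3 of them the same: the serine and glycine median no longer did, and HOM6 did, on array 4 (-2.18 turned, against -0.55 to -0.41). ILV5 had 4.05 on array 4, against -0.04 to 0.55 on its other 3 arrays. MET6 had 3.91 on array 4, against -0.33 to -0.25 on its other 3. Both genes were high in both of their spots there, and both lack a value on array 5. The lysine branch median was -4.01 on array 5, where it is the value of LYS12 alone, against -0.15 to 0.58 on the other arrays. The serine and glycine median was -0.94 on array 3, from 2 genes, against 0.20 to 0.58 elsewhere. The causes were not tested.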

How the results depend on the processing

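No member passed the threshold under any of the 12 alternatives, and the number of genes past it stayed at 0 except without array 5, where it was 4 of 2185 (SSA2, RPL21B, SUE1 and DSK2, named after their values were seen). Leaving out 1 of the arrays moved that count between 0 and 4, and the members at an unadjusted p under 0.05 between 0 and 4. These members numbered 1 (HOM2) with 4 replicates as deposited and 2 (ILV5 and HOM6) after scaling arrays to a common spread. With trend and robust eBayes settings 0 of 2981 genes reached the unadjusted level, so the lack of members there carries no weight.

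The median of the member means was 0.11. It was -0.26 with values required on all 3 arrays (10 members, 2 of them above 0, against 53.6% of genes), and -0.19 to 0.13 with 1 array left out. With 4 replicates it was -0.33 as deposited and 0.40 with the channel 2 arrays turned (9 members each). The turned fit negates arrays 2, 4 and 5, so the sign of its 0.40 runs opposite to that of the 0.11. Centring on the genes of all 3 arrays moved the median of all genes to -0.15, and 17 of 34 members were then above 0. Branch medians that moved by over 1 SD were as follows. With 4 replicates as deposited they were 1.14 for branched-chain (LEU1 alone) and -0.36 for serine and glycine (SER1 alone). With the channel 2 arrays turned they were 0.55 for sulphur (2 genes), 0.026 for threonine (2 genes) and -0.61 for serine and glycine (SER1 alone). Their signs also run opposite to those of the main medians, so these shifts mix both directions. Arrays 1 and 3, which may run the opposite way, gave 0.24 for sulphur (5 genes) and -0.73 for serine and glycine (2 genes). For nitrogen assimilation they gave 1.19 (GDH1 alone). The sulphur median was also -0.27 with all 3 arrays required, 0.12 with arrays scaled and 0.28 with both spots required, an alternative chosen after seeing the data. The histidine median, 1.16, moved by less than 1 SD but was 0.08 with arrays scaled and 0.40 on arrays 1 and 3. The aromatic median ran from -0.99 without array 2 to 0.48 without array 5.

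Means that changed sign did not pass the threshold under either setting. With the channel 2 arrays turned they were HOM2 (-0.35), LEU1 (-0.27), LYS12 (0.60), MET16 (0.60) and SER1 (-0.61), and SER1 also had -0.36 with 4 replicates as deposited. The turned fit negates the channel 2 arrays, so a changed sign there is not a reversal of direction. On arrays 1 and 3 the means that changed sign were GDH1 (1.19), HOM6 (-0.48), MET16 (0.24), MET6 (-0.31), SER1 (-0.97) and THR4 (0.21). Arrays 1 and 3 may run the opposite way to the channel 2 arrays. If they do, these means keep their direction, and the means that kept their sign there are the reversed ones. Scaling turned HIS7 (-0.76) and GLN1 (-0.22), and centring GLN1 (-0.032). With 1 array left out, GLN1 ran from -0.55 to 0.91 and LYS12 from -2.10 to 0.60. The causes were not tested. No paired analysis was possible because the arrays form 1 group. The motif search and its shorter window were not run. Ratios without intensities do not tell dim spots from bright ones.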
